A study of Mus musculus with 16 samples.

Results

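Gene deserts are long stretches of chromosome without protein-coding genes. Here a desert region is an open region more than 100 kb from the span of any protein-coding gene of the mouse genome build mm10 (GRCm38). Peaks of 8 deposited lists on chromosomes 1 to 19 were merged where they overlapped by 1 bp, which gave 118981 regions, and 11256 of them (9.46%) were desert regions. Another 39283 regions lay outside gene spans but within 100 kb of one, and 68442 lay inside a gene span. The rule used position alone and no peak value.

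The study measured open chromatin by ATAC-seq (Tn5 transposase cuts accessible DNA and tags the fragments with adapters) in mouse haematopoietic progenitors labelled as multipotent progenitors (MPP). All mice were 21 days old. Set 1 held Flt3-ITD, Runx1-het, Flt3-ITD/Runx1-het and wild type, and set 2 held NUP98-HOXD13, Flt3-ITD, NUP98-HOXD13/Flt3-ITD and wild type, with 2 samples in each of the 8 groups. Flt3-ITD is an internal tandem duplication that keeps the receptor tyrosine kinase Flt3 active, Runx1-het is the loss of a copy of a blood transcription factor, and NUP98-HOXD13 is a leukaemia fusion gene. Titles alone separate the sets; neither what distinguishes them nor the promoter driving the fusion gene is labelled. Each group's peak list was pooled over its 2 samples, so no value below has a spread between samples, no test between genotypes was made, and read depth was unknown.

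Deserts can hold enhancers, which act on a gene far away through loops of the chromatin fibre. Genes of development and of blood cell fate, such as Myc, Sox4 and Runx1, are known for long flanking deserts of this kind. Deserts also hold genes for long non-coding RNAs (lncRNAs) and microRNAs, since these make no protein.

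Sequences are shown for desert regions that hold the start of an annotated lncRNA, because there the opened DNA can be read. Each runs from 250 bases before the start to 50 after it, on the strand of the lncRNA, from RefSeq on GRCm38.p6. Capitals mark short motifs searched on both strands. For the Runx family of factors the letters were TGTGGT. For the Gata family they were AGATAA. For the Ets family they were CGGAAG. For AP-1 they were TGANTCA, where N is any base. A match is a description of the letters and not a binding site. The first is the strongest lncRNA start open in all 8 lists (chr1:7398047-7398346, minus strand, between Pcmtd1 and Sntg1), which held none of these motifs and 18 CpG pairs.
Gm26901: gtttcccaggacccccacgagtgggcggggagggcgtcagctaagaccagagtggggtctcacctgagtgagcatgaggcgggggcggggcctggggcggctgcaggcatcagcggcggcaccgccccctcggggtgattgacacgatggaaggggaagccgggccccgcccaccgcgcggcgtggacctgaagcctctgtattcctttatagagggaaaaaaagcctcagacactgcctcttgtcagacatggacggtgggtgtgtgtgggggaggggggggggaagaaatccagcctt
A stronger start than the one below, that of 4930555A03Rik, is not printed and held none of these motifs. The start below, open in all 8 lists and 507.6 kb from a gene (chr6:26766846-26767145, minus strand, between Pot1a and Grm8), held 1 AGATAA and 1 TGTGGT.
Gm30779: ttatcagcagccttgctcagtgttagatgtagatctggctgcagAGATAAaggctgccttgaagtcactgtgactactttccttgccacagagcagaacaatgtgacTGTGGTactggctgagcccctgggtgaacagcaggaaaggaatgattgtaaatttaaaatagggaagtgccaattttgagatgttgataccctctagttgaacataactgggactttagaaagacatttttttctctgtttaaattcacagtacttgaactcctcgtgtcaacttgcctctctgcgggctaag
The start below was open in the 4 Flt3-ITD lists and no other (chr11:114303572-114303871, plus strand, between Sdk2 and Rpl38), and held 1 CGGAAG, read here on the opposite strand.
Gm31318: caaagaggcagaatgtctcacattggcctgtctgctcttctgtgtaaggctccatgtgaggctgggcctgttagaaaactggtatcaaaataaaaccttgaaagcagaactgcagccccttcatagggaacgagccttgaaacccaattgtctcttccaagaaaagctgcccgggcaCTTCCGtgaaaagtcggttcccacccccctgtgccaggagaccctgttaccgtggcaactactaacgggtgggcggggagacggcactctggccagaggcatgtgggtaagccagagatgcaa
The last start, of an lncRNA beside the interferon gamma gene Ifng, was open in the pair of NUP98-HOXD13 lists alone (chr10:118556476-118556775, minus strand, between Ifng and Dyrk2).
Ifngas1: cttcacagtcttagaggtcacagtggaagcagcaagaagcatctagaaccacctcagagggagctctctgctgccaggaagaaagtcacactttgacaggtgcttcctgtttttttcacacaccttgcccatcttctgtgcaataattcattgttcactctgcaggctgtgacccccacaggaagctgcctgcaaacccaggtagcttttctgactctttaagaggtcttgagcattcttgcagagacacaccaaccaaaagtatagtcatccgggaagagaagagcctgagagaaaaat

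The microRNAs whose hairpins lay in deserts near open regions included 2 of the same seed family, the bases 2 to 8 in capitals that pair with target messages. Their mature sequences, from RefSeq, are given with their seeds, and miR-29a and miR-29b share the seed.
miR-29a-3p: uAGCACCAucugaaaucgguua
miR-29b-3p: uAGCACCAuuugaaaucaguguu
miR-205-5p: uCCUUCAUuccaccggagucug
miR-137-3p: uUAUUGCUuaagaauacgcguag
miR-100-5p: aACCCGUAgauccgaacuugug

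Between 4690 and 7722 desert regions were open in each genotype. Set-1 Flt3-ITD had 5904 desert regions (7.60% of its list), Runx1-het 6260 (7.76%), Flt3-ITD/Runx1-het 5763 (7.25%) and set-1 wild type 5112 (7.27%). In set 2, NUP98-HOXD13 had 6458 (8.49%), Flt3-ITD 4690 (8.39%), their combination 5366 (7.30%) and wild type 7722 (8.97%). Thus the 3 mutants of set 1 lay above their wild type in number and the 3 mutants of set 2 below theirs. The lists differed in length, from 55884 regions in set-2 Flt3-ITD to 86091 in set-2 wild type, and the median −log10 p of their peaks, the authors' measure of how far a peak stands above background, ran from 15.8 to 38.6 over the same lists. The part of list length in these counts was not tested. With the 81961 peaks of highest −log10 p from each list the counts were 4409 to 5554 and the shares 6.87% to 8.40%.

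**Figure D1:**
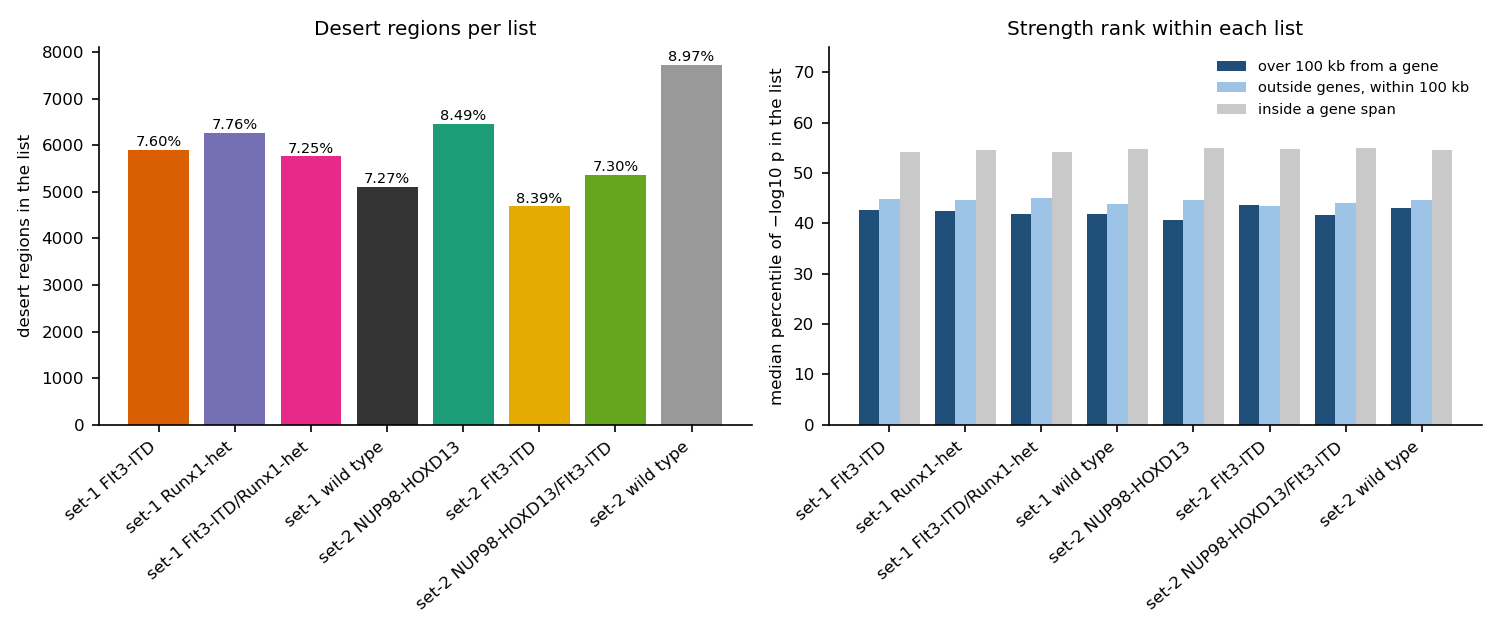
Left, number of desert regions in each of the 8 peak lists, with their percent of the list above each bar. Right, median percentile of the best −log10 p within each list for desert regions, regions outside genes within 100 kb and regions inside gene spans. Desert regions sit between 40.6 and 43.6, and regions inside genes between 54.1 and 54.9.

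The labelled cell type was set against marker genes. All 15 progenitor markers, among them Kit, Cd34 and Spi1, held a region in each list. Of 6 hepatocyte markers 2 did in each list, with Alb, Ttr, Cyp3a11 and Serpina1a without any, and of 10 mature blood markers 3 to 6 did, with Cd3g, Ly6g and Cd8a without any. Of 8 stroma and endothelium markers 6 to 8 did, and of 6 neuron markers 4 to 6. Open chromatin over a gene does not show that it is expressed, and the part of other cells in the results below was not tested.

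Desert regions were narrower than regions inside genes and ranked lower by −log10 p. Their median width after merging was 543 bp, against 548 bp for regions outside genes within 100 kb and 629 bp inside gene spans. By the peaks of a single list, desert regions were wider than regions outside genes within 100 kb in all lists but set-2 Flt3-ITD. The medians were 505 against 492 bp in set-1 Flt3-ITD, and 478.5 against 480 bp in set-2 Flt3-ITD. Inside genes they were 555 to 650 bp. Ranked by −log10 p within its own list, the median desert region stood at percentile 40.6 to 43.6, against 43.5 to 45.1 and 54.1 to 54.9 for those classes. Between 3.52% and 5.41% of desert regions reached the top 10% of their list, against 13.2% to 14.0% inside genes. Ranked by fold enrichment, the median desert region stood at 49.3. The median fold enrichment of desert regions lay above that of regions outside genes within 100 kb in all 8 lists (10.8 against 10.1 in set-1 Flt3-ITD and 9.55 against 9.15 in set-2 wild type), and below that of regions inside genes in all 8 (10.96 and 10.2 in those lists).

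The desert regions covered 6.70 Mb. Their median distance to a gene was 202 kb and the largest 2249 kb, with 4315 over 250 kb away, 1499 over 500 kb and 289 over 1 Mb. The median spacing between neighbouring desert regions was 16.2 kb, against 8.91 kb for regions within 100 kb and 7.68 kb inside genes. Chromosome 12 had the highest share of its regions in deserts (14.5%), followed by chromosome 13 (14.4%), and chromosome 19 the lowest (4.31%). Of the 755 desert regions on chromosome 12, 131 lay between Adam6a and Zfp386, among immunoglobulin segments not classed as protein-coding genes.

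Desert regions were shared by fewer lists than other regions. Of the 11256, 2548 (22.6%, 95% exact binomial interval 21.9 to 23.4) were in all 8 lists, against 35.4% of all other regions. Among those others the share was 28.9% outside genes within 100 kb and 39.1% inside genes. In 1 list alone were 3080 desert regions (27.4%), against 18.1% of the others. That share was 19.8% outside genes within 100 kb and 17.0% inside genes. Set-2 wild type alone held 943 of the 3080 and NUP98-HOXD13 alone 690, while each of the other 6 lists held 99 to 388. Regions in 1 list were weak, with a median percentile of 3.70 to 8.97, while those in all 8 stood at 62.2 to 74.6 within their lists.

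Sharing fell off with distance from genes. The share in all 8 lists was 24.8% at 100 to 250 kb, 20.5% at 250 to 500 kb, 16.5% at 500 kb to 1 Mb and 18.7% beyond 1 Mb. Across the threshold itself, 27.5% of the 1007 regions at 90 to 100 kb were in all 8 lists, and 26.3% of the 855 at 100 to 110 kb.

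The lists differed in how presence changed with distance. Set-1 Flt3-ITD held 68.8% of regions inside genes and 45.7% of those over 500 kb away. Runx1-het held 70.5% and 46.0%, Flt3-ITD/Runx1-het 70.0% and 40.1%, and set-1 wild type 62.8% and 36.3%. In set 2, NUP98-HOXD13 held 66.7% and 56.8%, the double mutant NUP98-HOXD13/Flt3-ITD 65.4% and 40.2%, Flt3-ITD 50.7% and 39.96%, and wild type 74.3% and 65.8%. Beyond 500 kb the share thus stood at 78.8% to 88.6% of its value inside genes in set-2 NUP98-HOXD13, Flt3-ITD and wild type, and at 57.3% to 66.5% in the other 5 lists. With equal numbers of peaks these ranges were 83.5% to 90.6% and 60.3% to 71.1%. The regions counted include those in 1 list alone, which raise the share of that list. Such regions made up 12.2% of the desert regions and 5.30% of the other regions of set-2 wild type. The values were 10.7% and 4.11% for NUP98-HOXD13 and 4.48% and 1.66% for set-2 Flt3-ITD. In the other 5 lists they made up 1.94% to 6.73% of desert regions, and their part was not tested. NUP98-HOXD13/Flt3-ITD stood with the set-1 lists here, and neither set nor genotype alone separates the lists.

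**Figure D2:**
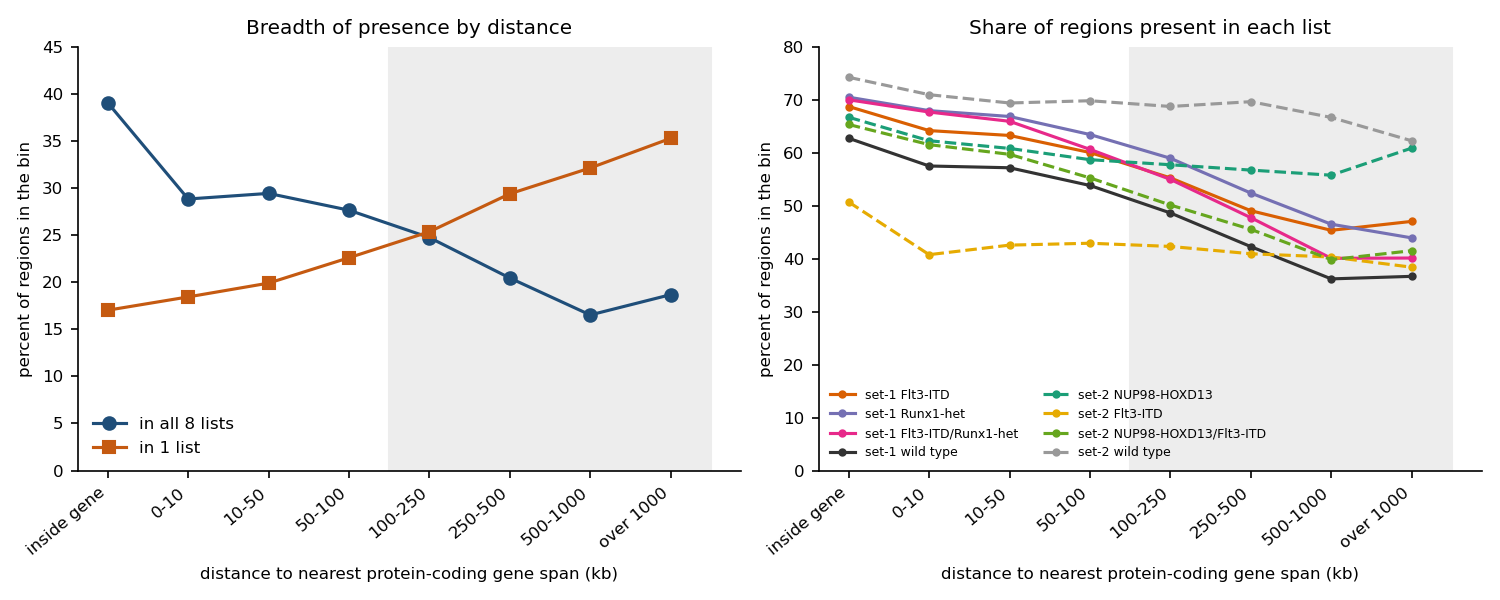
Left, percent of regions in all 8 lists and in 1 list by distance to the nearest protein-coding gene span, in kb. Right, percent of the regions of each distance bin present in each list (solid lines set 1, dashed lines set 2); grey marks deserts. Set-2 wild type stays between 62.3% and 69.7% within deserts.

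Desert regions formed clusters. Joined where they lay at most 25 kb apart, 6833 of them (60.7%) fell into 1190 domains of at least 3 regions, with a median length of 29.4 kb, and 2511 (22.3%) stood alone. Of the domains, 145 had 10 or more regions and 25 had 20 or more. The share in all 8 lists was 30.1% in domains of 10 or more and 14.9% for regions standing alone.

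The largest domain, of 47 regions over 278.6 kb (chr12:25197215-25475847), lay on the Id2 side of the desert between Id2, an inhibitor of E-protein transcription factors in lymphoid fate, and Rnf144a. Set-1 Flt3-ITD held 30 of its regions, Runx1-het 31, Flt3-ITD/Runx1-het 33 and set-1 wild type 26. NUP98-HOXD13 held 27, set-2 Flt3-ITD 18, their combination 26 and set-2 wild type 31. The domain between Serp2 and Lacc1 followed with 42 regions, and that between Klf14 and Mkln1 (chr6:31071749-31285025) with 40. The Klf14 domain held 25 regions inside Lncpint, an lncRNA gene, and lay beside the hairpins of miR-29a and miR-29b. Jun, an AP-1 transcription factor, flanked a domain of 33 regions, the oncogene Mycn one of 32 and Sox4, a transcription factor of B-cell development, one of 31. A domain of 29 regions beside Bcl2l11, which codes for the cell death protein Bim, held 23 regions inside Morrbid, an lncRNA gene known to repress Bcl2l11 in short-lived myeloid cells. Set-1 Flt3-ITD held 21 of the 29, Runx1-het 24 and Flt3-ITD/Runx1-het 26, against 22 in set-1 wild type. NUP98-HOXD13 held 22, set-2 Flt3-ITD 20 and their combination 24, against 20 in set-2 wild type.

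**Figure D3:**
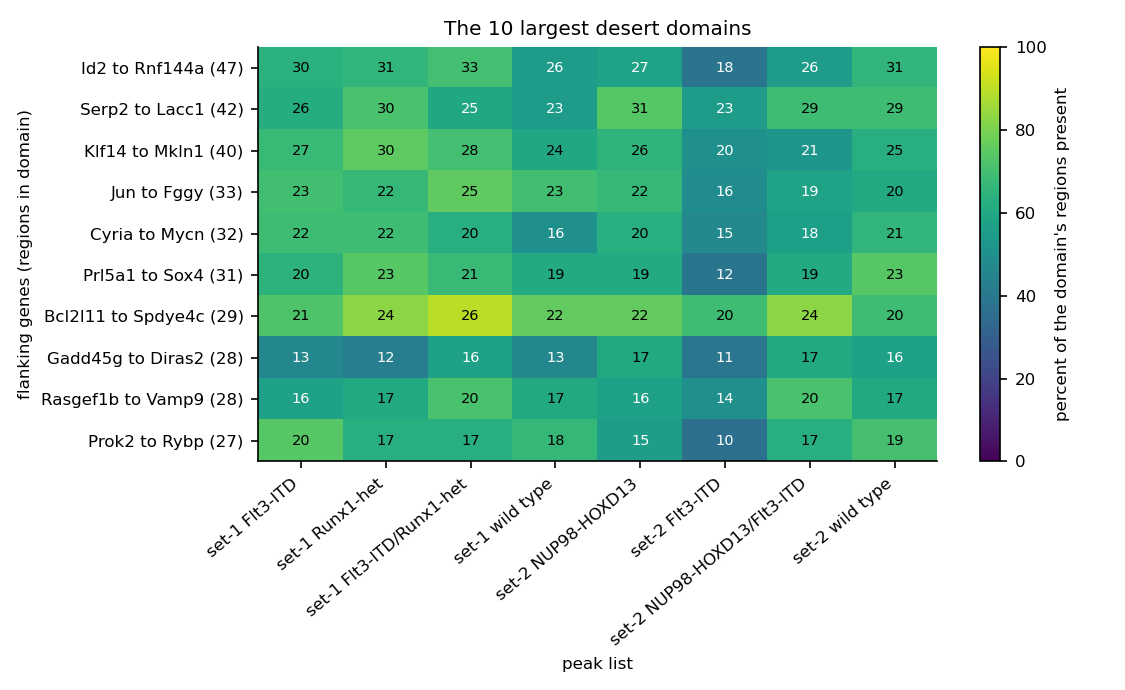
Regions present in each peak list (numbers) and their percent of the domain's regions (colour) for the 10 desert domains with the most regions, named by their flanking protein-coding genes. Set-2 Flt3-ITD holds 10 to 23 regions in each.

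Among the 145 domains of 10 or more regions, set-1 Flt3-ITD held more regions than wild type in 78 and fewer in 38. Runx1-het held more in 99 and fewer in 27, and Flt3-ITD/Runx1-het more in 91 and fewer in 21. In set 2 NUP98-HOXD13 held more in 46 and fewer in 79, Flt3-ITD more in 2 and fewer in 135, and NUP98-HOXD13/Flt3-ITD more in 37 and fewer in 93. These directions were those of the list lengths. A domain between Cd83 and Jarid2, a subunit of the Polycomb complex PRC2 (chr13:44455269-44601404, 26 regions), had 17 in Flt3-ITD/Runx1-het and 9 in set-1 wild type. It also had 17 in the NUP98-HOXD13/Flt3-ITD double mutant, which had the shorter list, against 11 in set-2 wild type. The domain was chosen as the one with the largest rise in each double mutant, and the part of list length was not tested. The single mutants had 11 (set-1 Flt3-ITD), 13 (Runx1-het), 12 (NUP98-HOXD13) and 6 (set-2 Flt3-ITD). The domain between Camk1g and Plxna2, near the hairpin of miR-205, had 15 of 24 regions in NUP98-HOXD13, 7 in Flt3-ITD and 13 in NUP98-HOXD13/Flt3-ITD, against 21 in set-2 wild type. In set 1 it had 11 in Flt3-ITD, 14 in Runx1-het and 10 in Flt3-ITD/Runx1-het, against 12 in wild type, so the 2 wild-type lists differed as well.

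Deserts were next taken as gaps of over 200 kb between neighbouring genes, of which there were 1376, and their cores as the part over 100 kb from both genes. Cores held 17.1 desert regions per Mb, and 262 deserts (19.04%) held none. Among the 939 with a core of at least 100 kb, 77 held none. Desert cores differed in length, and 184 deserts held 50% of the regions. The desert with the most, 131 regions between Adam6a and Zfp386 on chromosome 12, holds the variable segments of the immunoglobulin heavy chain, which the table does not class as protein-coding genes, and 112 desert regions of the genome lay in such antigen receptor segments. Next were the deserts between the adhesion receptor genes Adgrl2 and Adgrl4 (83), between Zeb2 and Acvr2a (82), and between Bcl11a and Fancl (70). Zeb2 and Bcl11a code for transcription factors of blood lineages. The longest desert without a region, 1657 kb, lay between Pom121l12 and Vstm2a.

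Deserts beside blood regulators were dense in open regions. Over the 939 deserts with a core of 100 kb or more, the median was 15.2 regions per Mb of core. It was 47.1 for the 50 deserts flanked by a blood regulator of a list of 128 genes, none of which was empty. It was 18.4 for 69 deserts beside developmental factors and 7.81 for 124 beside neural and adhesion genes. The middle 50% of the deserts ran from 25.9 to 73.1, from 8.73 to 36.5 and from 3.81 to 14.5 per Mb. Their median lengths were 719, 668 and 1132 kb in the same order, and the part of length in the densities was not tested. The 701 deserts beside no gene of these lists had a median of 15.4 regions per Mb. Of the 939 deserts, 77 (8.2%) were empty, as were 3 of the 69 and 5 of the 124. The lists were chosen with earlier results known, and this is a description without a test. The desert between Runx1 and Setd4 had 41 regions. Set-1 Flt3-ITD held 19 of them, Runx1-het 25 and Flt3-ITD/Runx1-het 23, against 17 in set-1 wild type. NUP98-HOXD13 held 16, set-2 Flt3-ITD 9 and their combination 26, against 17 in set-2 wild type.

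**Figure D4:**
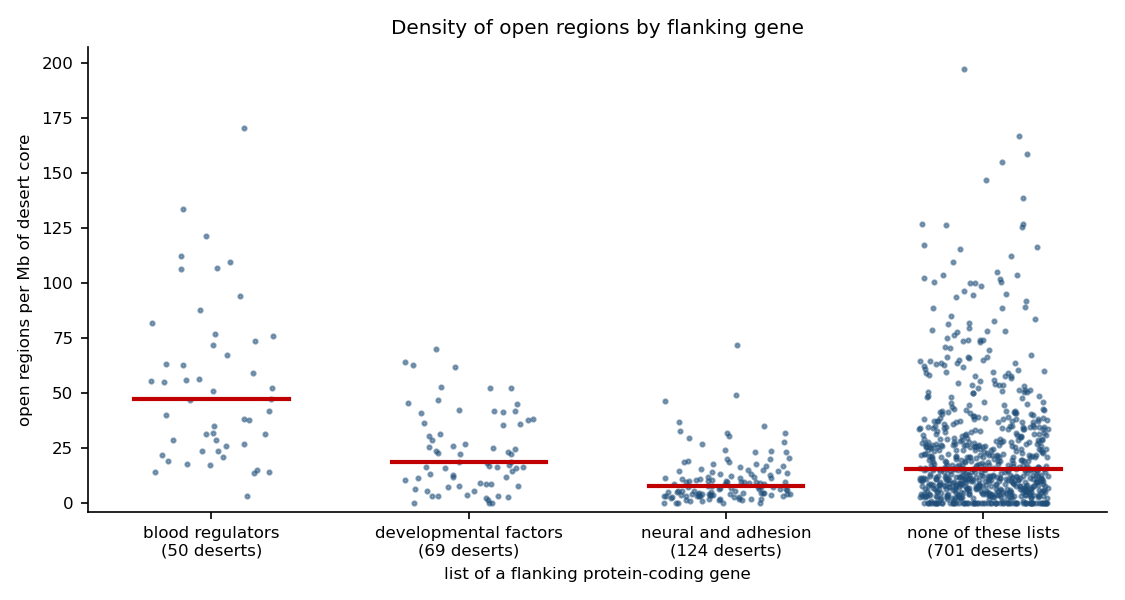
Open regions per Mb of desert core, 1 point per desert with a core of at least 100 kb, by the list that holds a flanking gene; red lines are medians. Deserts beside blood regulators have a median of 47.1 per Mb and those beside neural and adhesion genes 7.81.

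Most single desert regions seen in a mutant and not in its wild type were weak. In set 1, Flt3-ITD gained 1662 desert regions (14.8% of them, where 13.6% of all regions were gained) and lost 870 (7.73%, with 7.37% of all regions). Runx1-het gained 1868 (16.6%, with 15% of all) and lost 720 (6.40%, with 6.29%). Flt3-ITD/Runx1-het gained 1678 (14.9%, with 15.6%) and lost 1027 (9.12%, with 7.91%). Among regions outside genes within 100 kb, gains were 14.5%, 16.8% and 17.5% in the same order of mutants. Losses there were 8.16%, 6.84% and 8.53%.

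In set 2 the losses were larger. NUP98-HOXD13 gained 1375 (12.2%, with 8.85% of all regions) and lost 2639 (23.4%, with 17.3%). Flt3-ITD gained 518 (4.602%, with 3.3%) and lost 3550 (31.5%, with 28.7%). NUP98-HOXD13/Flt3-ITD gained 861 (7.65%, with 8.13%) and lost 3217 (28.6%, with 18.7%). Among regions outside genes within 100 kb, gains were 9.12%, 3.45% and 8.90% in the same order of mutants. Losses there were 18.2%, 31.6% and 19.4%, so the share for Flt3-ITD was close to that of desert regions. Equal numbers of peaks gave 8238 desert regions. Of these, 1881 (22.8%) were absent from the double mutant and present in wild type, against 11.7% of other regions. The same shares were 17.5% and 11.1% for NUP98-HOXD13, and 20.8% and 18.6% for Flt3-ITD. With all peaks, as a share of the list that held them, losses were 34.2% of desert regions and 22.8% of other regions for NUP98-HOXD13. They were 46.0% and 39.0% for Flt3-ITD, and 41.7% and 24.3% for the double mutant. On that base gains also stood higher among desert regions for all 6 mutants, with 16.0% and 12.9% for this double mutant and 29.1% and 22.9% for Flt3-ITD/Runx1-het, where the shares of all regions above stood the other way round. Lists of equal genotype differed as well. Set-2 wild type held 3122 desert regions (27.7%) absent from set-1 wild type, against 17.9% of other regions, and lacked 512 (4.55%, against 5.74%) that set-1 wild type held. Set-2 Flt3-ITD held 897 (7.97%, against 4.04%) absent from set-1 Flt3-ITD, and lacked 2111 (18.8%, against 23.2%) that set-1 Flt3-ITD held. Against the wild-type list of the other set, the balance of gains and losses turned round for the 3 set-1 mutants (868 gained and 2686 lost for Flt3-ITD), for NUP98-HOXD13 and for its combination with Flt3-ITD, so set and genotype cannot be told apart in these counts. Gained and lost regions had median percentiles of 10.1 to 22.0 in the list that held them.

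**Figure D5:**
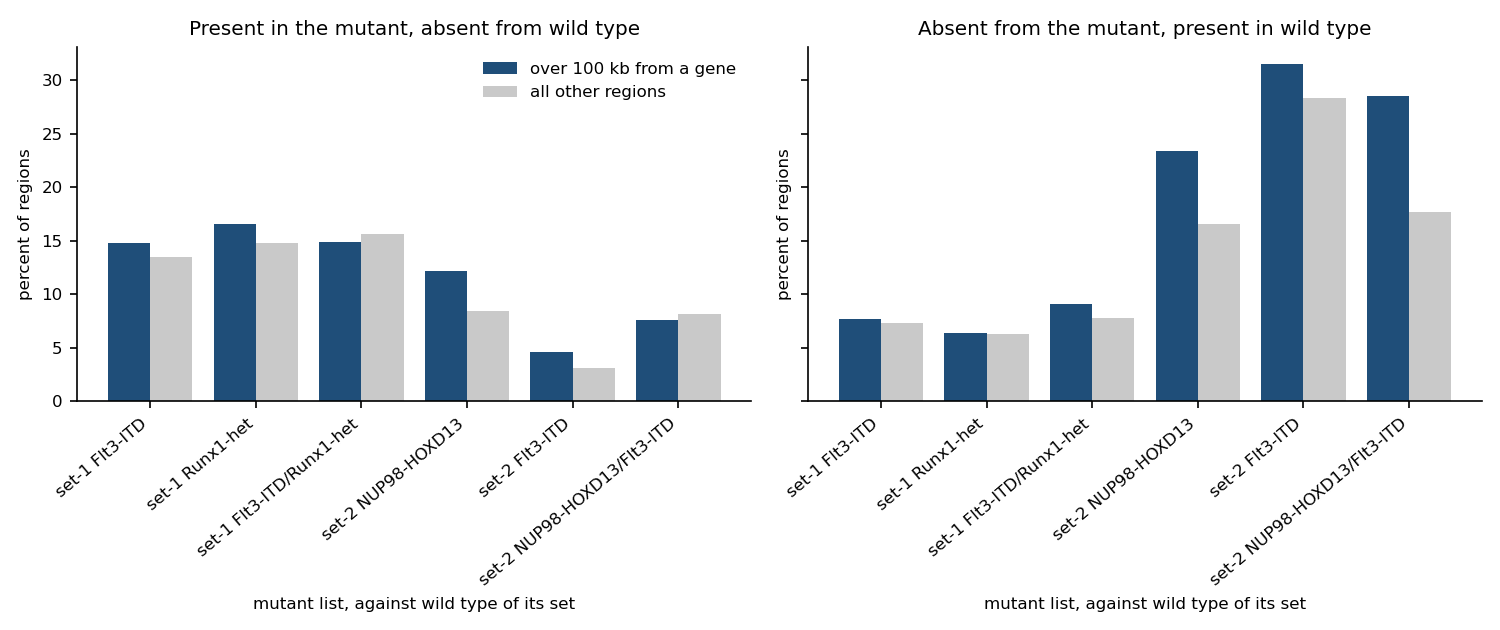
Percent of desert regions and of all other regions present in each mutant list and absent from the wild-type list of its set (left), and the reverse (right). For NUP98-HOXD13/Flt3-ITD, 28.6% of desert regions and 17.7% of other regions were absent from the mutant and present in wild type.

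Few desert regions followed a mutation across all lists. Only 9 were in the 4 Flt3-ITD lists and no other (0.0597% of all regions had that pattern), and 25 in the 4 lists without Flt3-ITD and no other (0.193%). By the lowest −log10 p over these lists, which ranks the regions named here, the first of the 9 (chr16:81756765-81757482) lay 132.5 kb from Ncam2, a neural cell adhesion gene, with −log10 p of 210.9 in set-1 Flt3-ITD, 184.7 in Flt3-ITD/Runx1-het, 60.1 in set-2 Flt3-ITD and 63.5 in NUP98-HOXD13/Flt3-ITD. It stood at percentile 63.5 to 88.3 in those lists. A second (chr8:96159810-96160675), between Got2 and Cdh8, had 121.2, 239.8, 46.1 and 201.6 in the same lists. Another held the start of Gm31318 printed above and was weaker, with 28.8, 106.5, 17.3 and 15.4 and a lowest percentile of 14.2. A further region of the 9 lay in the same desert beside Got2 (chr8:96213213-96213934). It had 24.6, 111.9, 14.2 and 51.8, with a lowest percentile of 21.3.

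The pair of NUP98-HOXD13 lists alone held 174 desert regions (0.94% of all regions had that pattern). The first by the same ranking (chr1:114039121-114040119) lay 1644.6 kb from Cntnap5a, with −log10 p of 207.5 in NUP98-HOXD13 and 122.3 in the double mutant with Flt3-ITD. Others lay between Cdh2 and Dsc3, both genes of cell adhesion (96.6 and 101.6), and between Lcorl and Slit2 (80.3 and 102.3). Set-2 wild type and NUP98-HOXD13 alone shared 197 (0.777%), the highest of the 28 pairs of lists. Set-2 wild type and NUP98-HOXD13/Flt3-ITD alone shared 37 (0.428%), and set-1 Flt3-ITD alone with its Runx1-het double mutant 100 (0.882%). Both Runx1-het lists and no other held 54 (0.529%), of which one between Mn1 and Cryba4 reached 29.5 in Runx1-het and 35.7 in Flt3-ITD/Runx1-het, and one between Eci2 and Cdyl 29.5 and 52.8. Both wild-type lists and no other held 60 (0.368%). The 4 set-1 lists and no other held 21 (0.25%), and the 4 set-2 lists and no other held 25 (0.0874%).

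Single regions also set the lists apart. A region between Fign and Grb14 (chr2:64709237-64710176) had −log10 p of 271.5 in set-1 Flt3-ITD and 48.3 in Runx1-het, was absent from Flt3-ITD/Runx1-het, and had 106.6 in set-1 wild type. In set 2 it was absent from both lists with NUP98-HOXD13, with 107.6 in Flt3-ITD and 381.3 in wild type. In the desert between Runx1 and Setd4, a region 289.9 kb from Setd4 and 466.8 kb from Runx1 (chr16:93292917-93293572) was missing in set-1 Flt3-ITD and had 70.7 in set-1 wild type. It was present in the other 7 lists.

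The strongest desert region of all 8 lists (chr8:73352421-73354086, between F2rl3 and Isx, 588.5 kb from a gene) stood at percentile 99.9 in each. Its −log10 p was 972.4 in set-1 Flt3-ITD, 1043 in Runx1-het, 939 in Flt3-ITD/Runx1-het and 986.1 in set-1 wild type. It was 991.6 in NUP98-HOXD13, 299.9 in set-2 Flt3-ITD, 705.7 in their combination and 1583.3 in set-2 wild type. These regions were not screened against known artefact-prone loci. The farthest desert region in all 8 lists (chr5:59996466-59997181) lay 1811.7 kb from G6pd2 and stood at percentile 96.9 to 99.8.

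Non-coding genes covered part of the deserts. Of the desert regions, 2311 (20.5%) lay inside an lncRNA span, and 27.4% of these were in all 8 lists against 21.4% of the rest. The lncRNA gene 2610307P16Rik beside Sox4 held 43, and Pvt1 beside the oncogene Myc held 13. Pvt1 had 7 in set-1 Flt3-ITD, 10 in Runx1-het and 11 in Flt3-ITD/Runx1-het, against 8 in set-1 wild type, and 5 in NUP98-HOXD13, 6 in set-2 Flt3-ITD and 5 in their combination, against 7 in set-2 wild type. Of 101 microRNA hairpins in deserts, 25 had a desert region within 10 kb, and 19 had one in all 8 lists. Neighbouring hairpins can share a region, as did those of miR-29a and miR-29b and those from miR-377 to miR-3072 on chromosome 12. The hairpins are thus not separate counts, and the share to be met from the density of desert regions was not computed. The hairpins of miR-29a, miR-29b, miR-205, miR-137 and miR-100 printed above were among the 19.

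CpG pairs were counted at the starts of lncRNAs in deserts. Of 80 start windows inside a desert region of all 8 lists, 13.8% had a CpG observed over expected ratio above 0.6, against 2.93% of 1776 desert starts touching no region, 14.1% of all lncRNA starts and 64.2% of 1552 lncRNA starts near genes open in all 8 lists. TGTGGT was in 31.2% of the 80 (25 windows), in 19.5% of the desert starts touching no region, in 20.1% of all lncRNA starts and in 14.8% of all protein-coding starts. It was in 20% of 60 desert starts inside a region of 1 to 7 lists, and in 14.4% of the 1552 near genes. AGATAA was in 15% of the 80, in 18.7% of the starts touching no region, in 14.0% of all lncRNA starts and in 9.57% of protein-coding starts. CGGAAG was in 16.2%, 4.34%, 8.98% and 21.5% of the same windows, and TGANTCA in 11.2%, 10.5%, 9.25% and 7.05%.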

How the data were processed

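ATAC-seq peak lists of 8 groups were used, each pooled over 2 samples, per the labels. The submitters' processing notes name Bowtie2, MACS2, mm10 and GRCm38, with no version or threshold. For each peak the authors deposited a score of unstated meaning, a p-value and a q-value as −log10, and a fold enrichment, which is a ratio. These rank peaks within 1 list only.

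Peaks were merged over the lists at 1 bp, and a region was present in a list with a peak in it. Distances were taken to 20554 protein-coding spans of the RefSeq table of GRCm38.p6, which gives no strand, so parts of genes were not told apart. Of its entries, 333 (107 protein-coding) whose positions broke the order along the chromosome were left out. Gene list entries found on chromosomes 1 to 19 were 128 of 129 blood regulators, 117 of 120 developmental factors and 104 of 110 neural and adhesion genes. Python 3.11.15, pandas 2.3.3, numpy 2.4.6 and scipy 1.17.1 were used, and the merging, distances and domains were tested on simulated data. Start windows and microRNAs were matched by symbol, and no start window on chromosome 18 was used here.

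Named regions were the 8 strongest and the 8 farthest in all 8 lists, the 3 strongest gained and lost per mutant, and the 5 strongest per mutation pattern; named domains were the 10 largest and the 2 with the largest rise and fall per mutant; named deserts were the 8 fullest and the 5 longest empty ones. Not all are printed. The Runx1 desert, Pvt1 and the printed start windows and microRNAs were chosen after their values were seen. The members and gene lists were chosen with earlier results of these data known. Alternatives changed the distance, gene table, number of peaks, q-value, overlap, measure of strength, joining distance and wild-type list.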

Additional observations from a re-analysis of the deposited data

Results flagged for a closer look

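The number of desert regions moved in opposite directions in the 2 Flt3-ITD groups. Set-1 Flt3-ITD had 792 more desert regions than set-1 wild type, while the set-2 Flt3-ITD count minus that of set-2 wild type was -3032. Each value compares 1 pooled list with 1 other, and the difference between the sets was not tested. The set-2 Flt3-ITD list was the shortest and had the lowest median −log10 p, and their part in the result was not tested.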

How the results depend on the processing

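With a distance of over 50 kb, 18288 regions were members and made up 13.0% of set-1 Flt3-ITD, 13.3% of set-1 Runx1-het, 12.6% of set-1 Flt3-ITD/Runx1-het, 12.6% of set-1 wild type, 13.9% of set-2 NUP98-HOXD13, 13.8% of set-2 Flt3-ITD, 12.6% of set-2 NUP98-HOXD13/Flt3-ITD and 14.7% of set-2 wild type. Of them, 24.6% were in every list and 25.5% in 1 list; 2020 domains held 67.0%, and 7.70% of deserts held none. Members present in the mutant and absent from wild type then numbered 2675 for set-1 Flt3-ITD, 3016 for set-1 Runx1-het, 2803 for set-1 Flt3-ITD/Runx1-het, 778 for set-2 Flt3-ITD and 1431 for set-2 NUP98-HOXD13/Flt3-ITD, and the reverse 1445 for set-1 Flt3-ITD, 1191 for set-1 Runx1-het, 1672 for set-1 Flt3-ITD/Runx1-het, 4108 for set-2 NUP98-HOXD13 and 5703 for set-2 Flt3-ITD. Patterns by mutation numbered 87 in both Runx1-het lists and no other. With a distance of over 250 kb, 4315 regions were members and made up 2.66% of set-1 Flt3-ITD, 2.68% of set-1 Runx1-het, 2.45% of set-1 Flt3-ITD/Runx1-het, 2.47% of set-1 wild type, 3.22% of set-2 NUP98-HOXD13, 3.14% of set-2 Flt3-ITD, 2.56% of set-2 NUP98-HOXD13/Flt3-ITD and 3.43% of set-2 wild type. Of them, 19.2% were in every list and 30.6% in 1 list. Domains numbered 430 and held 46.4%, and 64.0% of deserts held none. Deserts were still gaps of over 200 kb, and the shorter ones cannot hold a region over 250 kb from both genes. Members present in the mutant and absent from wild type then numbered 625 for set-1 Flt3-ITD, 695 for set-1 Runx1-het, 601 for set-1 Flt3-ITD/Runx1-het, 621 for set-2 NUP98-HOXD13, 217 for set-2 Flt3-ITD and 318 for set-2 NUP98-HOXD13/Flt3-ITD, and the reverse 293 for set-1 Flt3-ITD, 264 for set-1 Runx1-het, 390 for set-1 Flt3-ITD/Runx1-het, 1121 for set-2 NUP98-HOXD13, 1414 for set-2 Flt3-ITD and 1382 for set-2 NUP98-HOXD13/Flt3-ITD. Patterns by mutation numbered 2 in the 4 Flt3-ITD lists and no other, 81 in the NUP98-HOXD13 pair and no other and 20 in both Runx1-het lists and no other. With the spans of all genes, non-coding ones included, 1736 regions were members and made up 1.03% of set-1 Flt3-ITD, 1.02% of set-1 Runx1-het, 0.90% of set-1 Flt3-ITD/Runx1-het, 0.93% of set-1 wild type, 1.29% of set-2 NUP98-HOXD13, 1.23% of set-2 Flt3-ITD, 0.97% of set-2 NUP98-HOXD13/Flt3-ITD and 1.35% of set-2 wild type. Of them, 17.9% were in every list and 33.7% in 1 list; 162 domains held 39.8%, and 51.9% of deserts held none. Members present in the mutant and absent from wild type then numbered 257 for set-1 Flt3-ITD, 281 for set-1 Runx1-het, 221 for set-1 Flt3-ITD/Runx1-het, 276 for set-2 NUP98-HOXD13, 84 for set-2 Flt3-ITD and 121 for set-2 NUP98-HOXD13/Flt3-ITD, and the reverse 107 for set-1 Flt3-ITD, 106 for set-1 Runx1-het, 155 for set-1 Flt3-ITD/Runx1-het, 457 for set-2 NUP98-HOXD13, 559 for set-2 Flt3-ITD and 569 for set-2 NUP98-HOXD13/Flt3-ITD. Patterns by mutation numbered 2 in the 4 Flt3-ITD lists and no other, 36 in the NUP98-HOXD13 pair and no other and 3 in both Runx1-het lists and no other.

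With the 81961 peaks of highest −log10 p from each list, members made up 7.29% of set-1 Flt3-ITD, 7.33% of set-1 Runx1-het, 6.87% of set-1 Flt3-ITD/Runx1-het, 7.89% of set-2 NUP98-HOXD13, 6.95% of set-2 NUP98-HOXD13/Flt3-ITD and 8.36% of set-2 wild type. Then 29.0% of members were in every list and 21.4% in 1 list, domains held 52.3%, 23.0% of deserts held none, and 18 in both Runx1-het lists and no other were counted. Members present in the mutant only numbered 1013 for set-1 Flt3-ITD, 944 for set-1 Runx1-het, 991 for set-1 Flt3-ITD/Runx1-het and 860 for set-2 Flt3-ITD, and those in wild type only 1440 for set-2 NUP98-HOXD13, 1716 for set-2 Flt3-ITD and 1881 for set-2 NUP98-HOXD13/Flt3-ITD; the balance of each of the 6 mutants kept its side. Against the wild-type list of the other set, members present in the mutant only numbered 868 for set-1 Flt3-ITD, 979 for set-1 Runx1-het, 1092 for set-1 Flt3-ITD/Runx1-het, 2425 for set-2 NUP98-HOXD13, 1190 for set-2 Flt3-ITD and 1544 for set-2 NUP98-HOXD13/Flt3-ITD, and those in wild type only 2686 for set-1 Flt3-ITD, 2441 for set-1 Runx1-het, 3051 for set-1 Flt3-ITD/Runx1-het, 1079 for set-2 NUP98-HOXD13, 1612 for set-2 Flt3-ITD and 1290 for set-2 NUP98-HOXD13/Flt3-ITD. This turned the balance round for the 3 set-1 mutants, NUP98-HOXD13 and NUP98-HOXD13/Flt3-ITD, while set-2 Flt3-ITD kept more losses than gains. Counting a region as present only where peaks covered 50% of it gave 16.0% in every list, 29.0% in 1 list, and 7.55% of set-1 Runx1-het, 6.97% of set-1 Flt3-ITD/Runx1-het, 6.9999% of set-1 wild type and 7.10% of set-2 NUP98-HOXD13/Flt3-ITD. Peaks with −log10 q of at least 5 gave 25.2% in 1 list, and leaving out the set-2 Flt3-ITD list gave 26.4% in every remaining list. Ranked by fold enrichment, the members' median percentile was 49.3, against 42.2 by −log10 p. Joining at 10 kb put 37.2% of members in domains, and joining at 50 kb 76.4%. Keeping the table entries out of order, an alternative chosen after seeing the data, kept all 30 values within the limits used here, which were the 95% exact interval of a share, 2 percentile points and 1.5 times a count. Deserts with no member then made up 19.7%, against 19.04%.

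No paired analysis was possible because each group has 1 peak list pooled over both samples, so no column carries a replicate number. Leaving out each replicate could not be run for the same reason. No spread between samples was known, and intervals cover counting error only. Read depth was unknown, and the set-2 Flt3-ITD list was the shortest and had the lowest median −log10 p. Set and genotype can be compared only where a genotype occurs in both sets. No genome sequence was used, so mappability and base composition of the regions were not tested.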

Other observations

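On chromosome X, which the rule leaves out, 289 of 3013 regions (9.59%) lay over 100 kb from a protein-coding gene span. Set-1 Flt3-ITD held 175 of them, Runx1-het 170 and Flt3-ITD/Runx1-het 165, against 124 in set-1 wild type. NUP98-HOXD13 held 131, set-2 Flt3-ITD 106 and their combination 134, against 204 in set-2 wild type. The 3 mutants of each set thus stood on the same side of their wild type as on chromosomes 1 to 19. The sex of the mice is not given in the labels used here.

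The 112 desert regions in antigen receptor segments were shared more widely than other desert regions, with 29.5% in all 8 lists and 8.93% in 1 list. Set-1 Flt3-ITD held 82 of them, Runx1-het 85 and Flt3-ITD/Runx1-het 75, against 72 in set-1 wild type. NUP98-HOXD13 held 76, set-2 Flt3-ITD 55 and their combination 73, against 84 in set-2 wild type.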
